A study of Mus musculus with 47 samples.

Results

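Myelin was given to cultured microglia, the resident macrophages of the brain, and the change it brought about in cells carrying human APOE was set against the change in cells with no intact Apoe. All cells were primary microglia from the forebrain of C57BL/6 mice, grown in DMEM with 10% fetal bovine serum. E4 and E3 cells carry the human APOE4 or APOE3 gene in place of both mouse Apoe alleles, and KO cells have both Apoe alleles disrupted. Each genotype was either exposed to myelin for 3 h and collected at 24 h, or left untreated. The comparison used 28 of the 47 libraries of the series, with 5 E4, 4 E3 and 5 KO libraries after myelin and the same numbers untreated. The quantity is a difference of responses: the myelin-minus-untreated change of E4 and that of E3, averaged with equal weight, minus the same change in KO. WT cells, with mouse Apoe, are given beside these where it helps and had 5 libraries after myelin and 5 untreated. Heterozygous cells were left out. The labels do not say whether libraries of a group came from separate animals or cultures, so the p-values measure only the spread between libraries, which may be technical in part.

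Myelin is rich in cholesterol, and a phagocyte that takes it up must digest the lipid in lysosomes and then export, store or esterify the freed sterol. Surplus sterol is sensed by a pair of systems. Oxysterols activate the liver X receptors (LXR), which raise sterol exporters such as Abcg1 and Abca1, and sterol in the endoplasmic reticulum holds back SREBP2, the factor that drives the enzymes of cholesterol synthesis. Apolipoprotein E, itself an LXR target, accepts the exported sterol outside the cell.

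Levels below are rescaled TPM: each library's TPM were divided by its total over nuclear protein-coding genes and multiplied to 1000000. In these bulk values fewer cells of a type and less RNA per cell cannot be told apart. Nuclear coding genes held 15.97% to 24.3% of TPM in E4 libraries after myelin and 7.16% to 16.1% in untreated ones. In E3 they held 10.1% to 23.7% after myelin and 11.1% to 16.6% untreated, and in KO 21.7% to 25.9% after myelin and 16.4% to 24.9% untreated. The 12 microglia and macrophage markers averaged 21038 ± 268 rescaled TPM in sum in E4 after myelin and 19068 ± 1109 untreated (SD, n = 5 each), 18324 ± 1372 and 16389 ± 842 in E3 (SD, n = 4 each), and 25692 ± 895 and 23801 ± 1024 in KO (SD, n = 5 each). The markers of the labelled cell type were thus present in every group, and their sum was higher in KO. Single markers did not all follow the sum. In untreated cells Aif1, Cx3cr1 and C1qa had higher means in E4 than in KO, and the other markers had higher means in KO. The 16 astrocyte markers summed to 2704 ± 728 rescaled TPM in E4 after myelin and 3056 ± 685 in untreated E4 (SD, n = 5 each), 1318 ± 71.7 and 1536 ± 103 in E3 (SD, n = 4 each), and 356 ± 14.6 and 401 ± 26.5 in KO (SD, n = 5 each). Astrocyte marker levels differed between the genotypes in both conditions, with Gfap at a mean of 1056 rescaled TPM in E4 after myelin and 17.5 in KO after myelin. Other markers differed by genotype too. The 16 fibroblast and pericyte markers summed to 1392 ± 106 rescaled TPM in E4 after myelin and 1753 ± 228 untreated (SD, n = 5 each), 2445 ± 299 and 3580.3 ± 359 in E3 (SD, n = 4 each), and 355 ± 169 and 517 ± 463 in KO (SD, n = 5 each). The 10 neuron markers summed to 61.5 ± 5.94 in E4 after myelin and 78.3 ± 7.76 untreated (SD, n = 5 each), 56.3 ± 6.03 and 69.7 ± 5.62 in E3 (SD, n = 4 each), and 5.44 ± 0.641 and 8.62 ± 1.71 in KO (SD, n = 5 each). The part of coding share and of other cell types in the differences below was not tested.

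**Figure D1:**
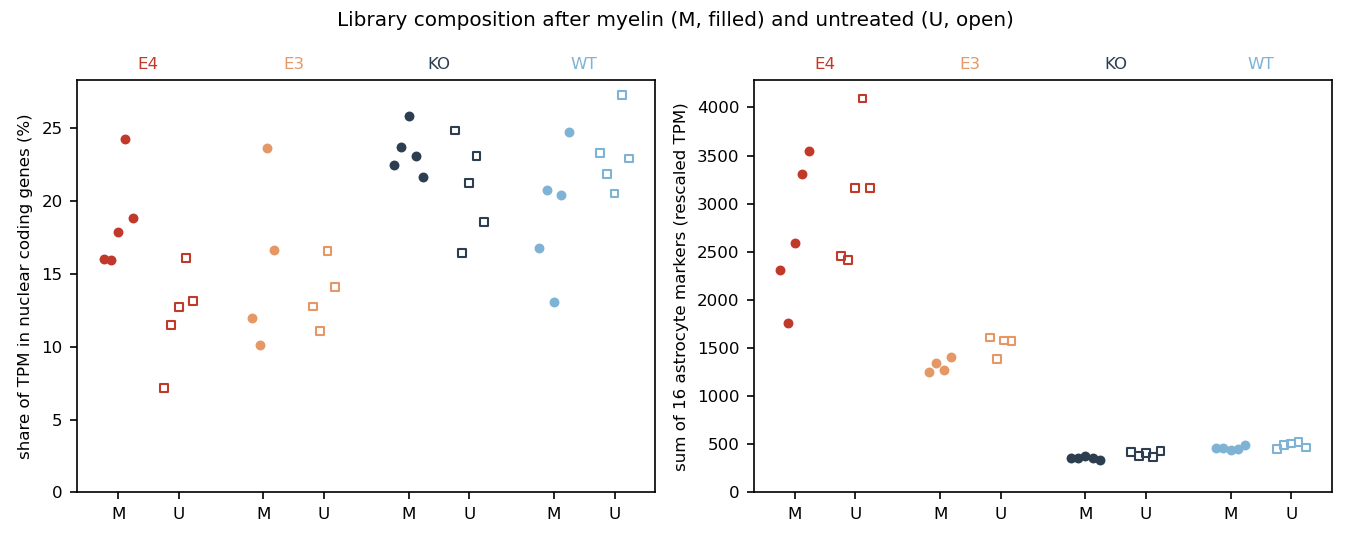
Each point is a library: the left panel gives the share of TPM in nuclear coding genes (%), the right panel the sum of 16 astrocyte markers (rescaled TPM), by genotype after myelin (M, filled) and untreated (U, open). The E4 and E3 libraries lie above all KO libraries in astrocyte markers, and the KO coding shares after myelin lie between 21.7% and 25.9%.

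Apoe, at chromosome 7 from 19696109 to 19699188 (mm10), checks the labels. It stood at 66.1 to 85.4 rescaled TPM in KO after myelin and 67.3 to 86.4 untreated, against 59262 to 82326 in WT after myelin and 46678 to 63640.0 in untreated WT. In E4 cells Apoe stood at 312, 745, 568, 399 and 383 rescaled TPM after myelin, against 138, 141, 163, 213 and 236 rescaled TPM untreated. In E3 cells Apoe stood at 104, 147, 260.1 and 148 rescaled TPM after myelin, against 92.2, 112, 114 and 111 rescaled TPM untreated. Reads of the human gene need not map to the mouse one, so these levels do not measure human APOE. The E4 libraries after myelin all lay above the untreated ones, and the E3 libraries overlapped. The mouse Apoe row had a difference of responses of 0.96 ± 0.25 (limma, adjusted p = 0.0306), with E4 at 1.39 and KO at 0.01 on the log2 scale. That call was lost without KO untreated replicate 1 (adjusted p = 0.0733), KO myelin replicate 3 (0.0572) or KO myelin replicate 4 (0.0553).

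Of 10436 genes tested, 349 (3.34%) had a different response in human APOE cells than in KO cells, 196 of them (1.88%) with a higher and 153 (1.47%) with a lower response in human APOE (limma on log2 values, Benjamini-Hochberg adjusted p under 0.05). A further share passed only without adjustment, 1797 genes in all at an unadjusted p under 0.05. The difference against KO was called for 132 genes (1.26%) with E4 alone, 72 higher (0.69%) and 60 lower (0.575%). With E3 alone it was called for 195 (1.87%), 94 higher (0.901%) and 101 lower (0.968%). E4 and E3 responses differed from each other at no gene after adjustment in limma, with 546 at an unadjusted p under 0.05. At all 349 called genes the E4 minus KO and E3 minus KO differences had the same sign. Both hold the same KO response and the genes were called on their mean, so this sameness is largely built in. Myelin changed 1639 genes (15.7%) in E4, of which 8.37% of all genes tested rose and 7.34% fell. It changed 1110 (10.6%) in E3, with 6.1% up and 4.53% down, and 288 (2.76%) in KO, with 1.06% up and 1.7% down. Of the 196 genes with a higher response, 114 rose in both E4 and E3 and were not called in KO, and 24 fell in KO and were not called in either human genotype. Of the 153 with a lower response, 39 fell in both human genotypes and were not called in KO, and 24 rose in KO and were not called in E4 or E3.

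These counts depended on which libraries set the spread. With the WT and heterozygous libraries added to the fit, 2 genes were called, Abcg1 and Fdps. The median residual SD on the log2 scale was 0.197 in the 28 libraries, 0.203 with WT added and 0.277 with heterozygous libraries added too. Nuclear coding genes held 0.468% to 18.4% of TPM in untreated heterozygous libraries and 2.91% to 13.9% in those after myelin. The part of these shares in the drop was not tested. Leaving out a single library moved the count by over 1.5 times for KO untreated replicate 1 (165 genes), KO myelin replicate 2 (227) and E4 myelin replicate 3 (232).

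At rest the genotypes already lay far apart. Human APOE cells differed from KO cells at 7151 of the 10436 genes (68.5%) untreated, 34.6% higher and 33.9% lower. After myelin they differed at 6143 (58.9%), 30.3% higher and 28.6% lower. For 278 of the 349 called genes (79.7%) the gap between human APOE and KO was smaller after myelin than before it, against 64.9% of the genes not called. For the rest it was larger, and these hold Abcg1 and Fdps. The untreated gap is a term of the difference itself, so these shares describe the called genes and test nothing.

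**Figure D2:**
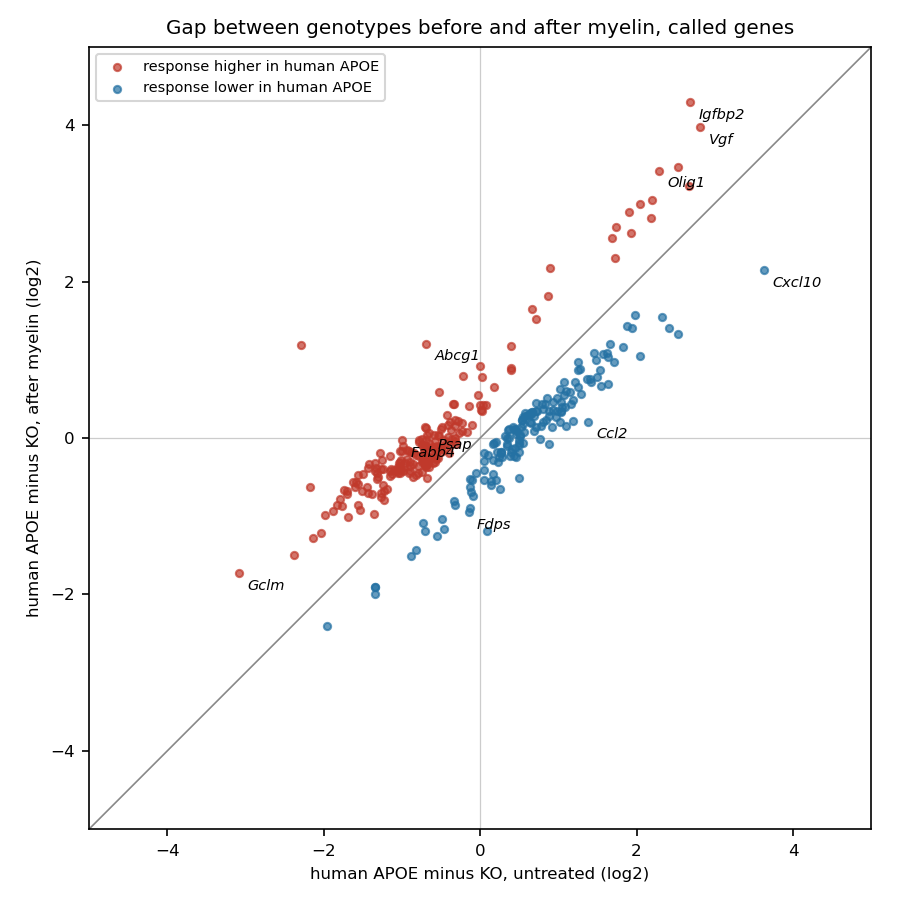
Each point is 1 of the 349 called genes, with the log2 difference human APOE minus KO untreated on the horizontal axis and after myelin on the vertical axis; points on the diagonal would have equal responses. Ccl2 (1.38 untreated, 0.21 after myelin) lies close to 0 after myelin, while Fdps (-0.15 and -0.95) lies farther from it.

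Of 20 tested LXR targets and sterol export genes, 3 had a higher response in human APOE cells (Abcg1, Mylip and Plin2) and 0 a lower one, against 1.88% higher and 1.47% lower among all genes tested, with a median difference of 0.10 against 0.00 over all genes tested. Abcg1, at chromosome 17 from 31057675 to 31117988, encodes a transporter that moves cholesterol out of the cell. In E4 cells Abcg1 stood at 45.2, 48.6, 48.5, 41.4 and 45.9 rescaled TPM after myelin, against 6.47, 9.77, 8.64, 7.14 and 9.22 rescaled TPM untreated. In E3 cells Abcg1 stood at 36.5, 22.6, 32.4 and 30.7 rescaled TPM after myelin, against 5.47, 5.65, 6.52 and 6.51 rescaled TPM untreated. In KO cells Abcg1 stood at 16.6, 13.7, 12.9, 16.04 and 19.1 rescaled TPM after myelin, against 12.7, 12.2, 11.6, 12.2 and 11.03 rescaled TPM untreated. All E4 and E3 libraries after myelin lay above every other library, the lowest of them in E3 close to the highest KO library after myelin, while the KO libraries after myelin lay just above the untreated KO ones. The mean levels in E4 were 45.9 ± 2.95 after myelin and 8.25 ± 1.396 untreated (SD, n = 5 each). Abcg1 thus rose by 2.35 ± 0.12 (log2 ± SE) in E4 and by 2.15 ± 0.13 in E3, against 0.35 ± 0.12 in KO (adjusted p = 0.103), and the difference of responses was 1.90 ± 0.14 (limma, adjusted p = 2.47e-09). Untreated, human APOE cells had less Abcg1 than KO cells (-0.69), and after myelin they had more (1.21). The call held in all 28 fits that leave out 1 library, with a difference between 1.83 and 1.97.

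Mylip encodes a ubiquitin ligase that is itself an LXR target. In E4 cells Mylip stood at 28.8, 26.8, 30.2, 36.2 and 31.9 rescaled TPM after myelin, against 11.97, 17.7, 17.6, 16.7 and 20.2 rescaled TPM untreated. In E3 cells Mylip stood at 27.1, 25.5, 33.1 and 27.2 rescaled TPM after myelin, against 13.2, 13.4, 17.5 and 15.5 rescaled TPM untreated. In KO cells Mylip stood at 30.4, 31.9, 34.98, 30.8 and 38.4 rescaled TPM after myelin, against 37.5, 29.8, 32.6, 35.7 and 30.2 rescaled TPM untreated. Myelin brought both human genotypes from below the KO libraries to about the KO level, and the KO groups overlapped. Its difference of responses was 0.86 ± 0.14 (limma, adjusted p = 0.000838). Plin2, which coats lipid droplets, also rose in E4 (0.45 ± 0.06) and E3 (0.43 ± 0.07), but its difference of 0.28 ± 0.08 (adjusted p = 0.0447) lost its call in 20 of the 28 fits without 1 library. Abca1, the exporter that loads sterol onto apolipoproteins, rose in E4 (0.62 ± 0.13) and in E3 (0.82 ± 0.15), while its difference from KO of 0.57 ± 0.16 did not pass the threshold (adjusted p = 0.0507). In all, 8 of the 20 genes rose in E4, 7 in E3 and 1 in KO, where 8.37%, 6.1% and 1.06% of all genes tested rose. Myelin therefore raised several LXR targets in human APOE cells, but a difference from KO was called for 3.

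**Figure D3:**
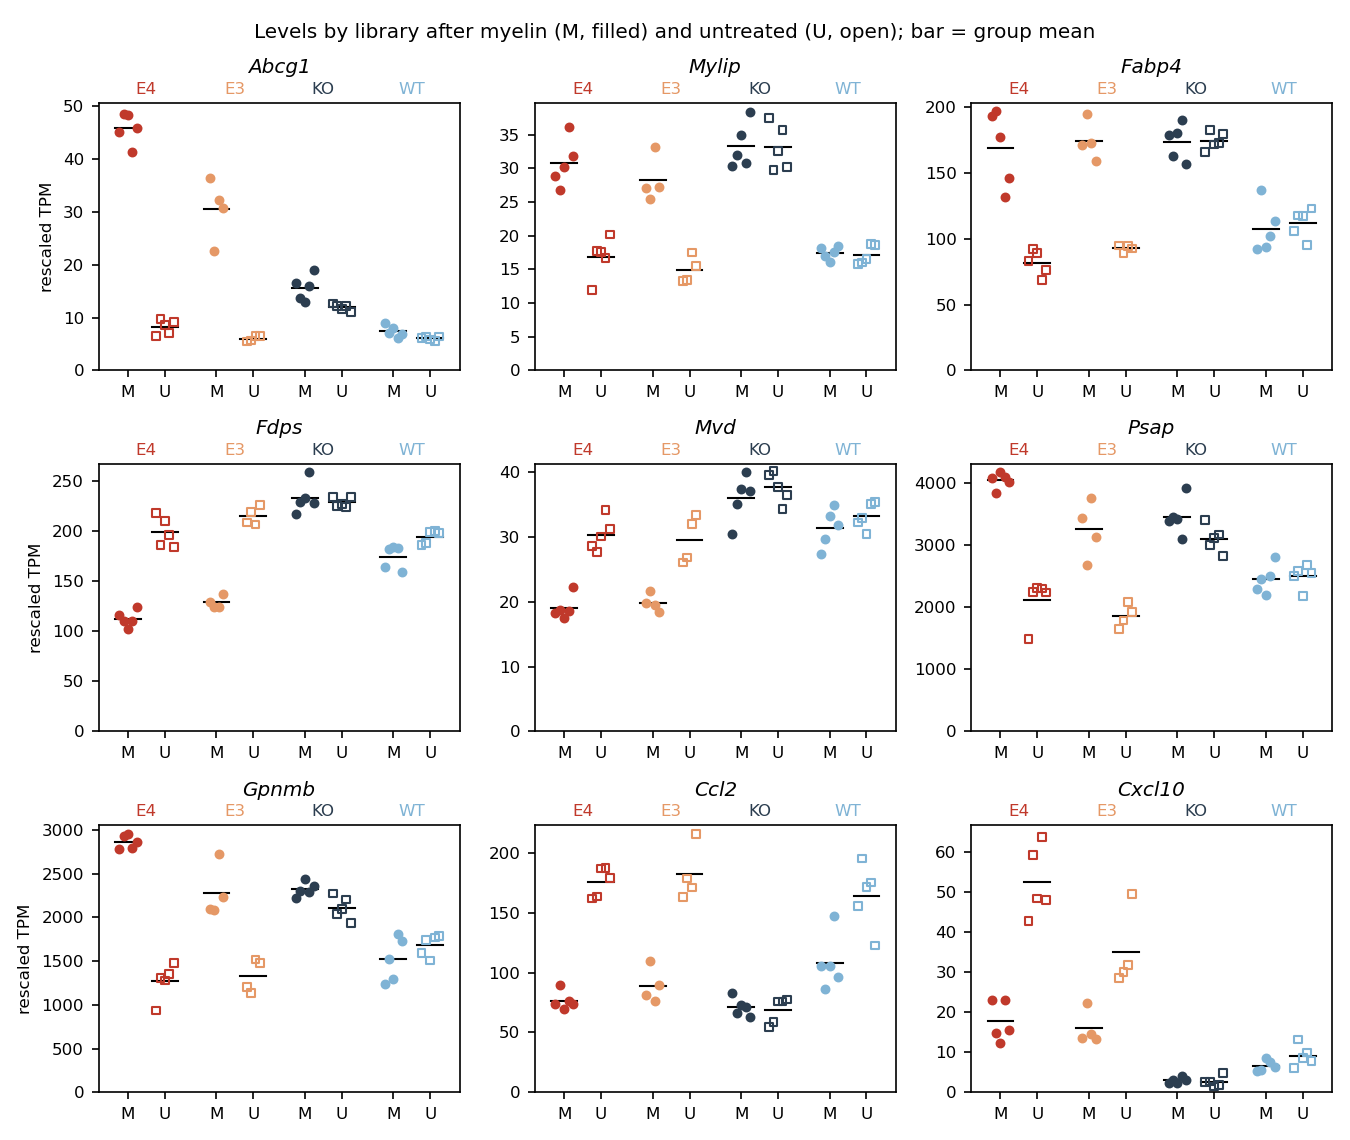
Rescaled TPM of 9 genes in every library after myelin (M, filled) and untreated (U, open) of E4, E3, KO and WT cells; bars are group means. For Abcg1 all E4 and E3 libraries after myelin lie above every other library, for Fdps they lie below every other library, and for Mylip, Fabp4, Psap and Gpnmb the untreated E4 and E3 libraries lie below the KO libraries.

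Genes of cholesterol synthesis and uptake moved the other way. Of 23 tested, 5 had a lower response in human APOE cells (among them Fdps, Mvk, Mvd and Pmvk) and 0 a higher one, against 1.47% lower among all genes tested, and 22 of the 23 differences were negative, with a median of -0.37. In E4 16 of them fell after myelin, in E3 7 and in KO 0, where 7.34%, 4.53% and 1.7% of all genes tested fell. Fdps, at chromosome 3 from 89093588 to 89101959, encodes farnesyl diphosphate synthase, which makes the precursor of squalene. In E4 cells Fdps stood at 117, 110.2, 103, 110.1 and 124 rescaled TPM after myelin, against 219, 186, 211, 197 and 184 rescaled TPM untreated. In E3 cells Fdps stood at 129, 124, 125 and 138 rescaled TPM after myelin, against 209, 219.6, 207 and 227 rescaled TPM untreated. In KO cells Fdps stood at 218, 229, 234, 260.0 and 229 rescaled TPM after myelin, against 235, 225, 228, 224 and 234 rescaled TPM untreated. The human APOE libraries after myelin were all below every other library, and the KO groups overlapped. Fdps fell by 0.82 ± 0.06 on the log2 scale in E4 and by 0.74 ± 0.07 in E3, with a change of 0.03 ± 0.06 in KO, which did not pass, and a difference of -0.80 ± 0.07 (limma, adjusted p = 1.07e-07). Its gap to KO was small before myelin (-0.15) and wide after it (-0.95).

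Enzymes of the mevalonate branch that feeds farnesyl diphosphate synthase also had a lower response. They were mevalonate kinase Mvk (-0.61 ± 0.10, limma, adjusted p = 0.00132), phosphomevalonate kinase Pmvk (-0.44 ± 0.10, adjusted p = 0.0118) and the decarboxylase Mvd (-0.53 ± 0.11, adjusted p = 0.00552). Mvd ranged over 17.6 to 22.3 rescaled TPM in E4 after myelin, against 27.7 to 34.2 untreated, and over 30.5 to 40.1 in KO after myelin, against 34.3 to 40.2 untreated. The other named genes of the pathway did not differ at the threshold. Squalene epoxidase Sqle gave -0.36 ± 0.14 (adjusted p = 0.16) and the regulator Srebf2 -0.31 ± 0.10 (adjusted p = 0.0964). The list's count was 12 with trimmed-mean library factors and 12 with the trend on 5′ GC content removed. It was 8 without E3 myelin replicate 3 and E4 untreated replicate 1, 14 with library weights and 12 with weights and all 47 libraries. With a pseudocount of 0.5 or 5 or with the replicate block it stayed at 5. It was 4 without a filter on low values and 1 with all 47 libraries unweighted. All of these calls were lower.

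The promoters of sterol genes are shown because 16 of the 23 members fell in E4 and 7 in E3. RefSeq promoters (GRCm38.p6, 250 bases before to 50 after the start) were matched for 17 of the 23 sterol genes and for 8238 of all genes tested. CCAATC, a form of the box bound by NF-Y, a partner of SREBP at these genes, was found on either strand in 14 of the 17 (82.4%), against 1956 of the 8238 (23.7%). The SREBP element form TCACNCCAC was in 1 of the 17 and in 118 of the 8238 (1.43%). Of the 5 members called lower, 3 had a promoter in the table, and CCAATC was in Mvd and Mvk. Windows of 120 bases lie at chr8:122443393-122443512 (minus strand) and chr5:114444179-114444298 (plus strand), with CCAATC or its reverse complement GATTGG in capitals:
Mvd: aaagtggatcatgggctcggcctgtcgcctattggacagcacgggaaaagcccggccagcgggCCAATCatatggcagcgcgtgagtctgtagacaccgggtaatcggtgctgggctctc
Mvk: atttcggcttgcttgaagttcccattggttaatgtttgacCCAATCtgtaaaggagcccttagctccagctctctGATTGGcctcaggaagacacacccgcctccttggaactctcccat
The box was also in 13 of 18 cell division promoters (72.2%), in 10 of 15 promoters of unfolded protein response chaperones (66.7%), of which 0 were called by limma (7 at an unadjusted p under 0.05), and in 14 of 22 promoters of ATF4 targets (63.6%). Over all genes called lower it was in 34 of 120 (28.3%). A match is a run of letters in this window, and no binding was measured.

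Among 18 tested genes of lipid storage, myelin raised 9 in E4, 6 in E3 and 0 in KO. The shares of all genes tested that rose were 8.37%, 6.1% and 1.06%. Of the 18, 5 had a higher response (Fabp4, Soat1, Hilpda, Fabp5 and Plin2) and 0 a lower one, with a median difference of 0.26. Over all genes tested 1.88% were called higher and 1.47% lower. Fabp4 is a fatty acid carrier of macrophages and fat cells. In E4 cells Fabp4 stood at 193, 197, 177, 132 and 146 rescaled TPM after myelin, against 83.00, 91.9, 88.8, 68.5 and 76.5 rescaled TPM untreated. In E3 cells Fabp4 stood at 171, 194, 172 and 159 rescaled TPM after myelin, against 94.7, 89.3, 94.5 and 92.4 rescaled TPM untreated. In KO cells Fabp4 stood at 179, 163, 180.2, 189.7 and 156 rescaled TPM after myelin, against 166, 182, 171, 172 and 179.7 rescaled TPM untreated. Untreated human APOE libraries were all below the KO libraries, and after myelin they overlapped with them. The difference was 0.97 ± 0.11 (limma, adjusted p = 1.03e-05), with KO at -0.01 ± 0.09. The related carrier Fabp5 gave 0.45 ± 0.07 (adjusted p = 0.000544) and Hilpda, an inhibitor of droplet lipolysis, 0.48 ± 0.12 (adjusted p = 0.0223, lost without KO untreated replicate 1 at 0.0627). Soat1, which esterifies cholesterol for storage, ranged over 201 to 262 rescaled TPM in E4 after myelin, against 118 to 183 untreated, and over 218 to 267 in KO after myelin, against 229 to 273 untreated. Its difference of 0.51 ± 0.13 (adjusted p = 0.0278) was lost without KO untreated replicate 1 (0.0705), KO untreated replicate 4 (0.0528), KO myelin replicate 4 (0.0586) or KO myelin replicate 5 (0.0504). Of 15 fatty acid synthesis genes 1 was called lower, Tecr (-0.25 ± 0.07, adjusted p = 0.0384, lost in 10 of the 28 fits without 1 library), and of 19 PPAR target and fatty acid oxidation genes 0 were called by limma (1 at an unadjusted p under 0.05), with a median of -0.04.

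Many lysosomal genes rose after myelin in human APOE cells and few in KO. Of 42 tested lysosomal enzymes and membrane proteins, 10 had a higher response (among them Psap, Mcoln1, Lipa, Cln3, Ctsa, Cd68, Npc1, Hexa and Cd63) and 0 a lower one, against 1.88% higher among all genes tested, and 37 of the 42 differences were positive, with a median of 0.26. Myelin raised 25 of them in E4, 23 in E3 and 1 in KO, where 8.37%, 6.1% and 1.06% of all genes tested rose. Psap, at chromosome 10 from 60277627 to 60302597, encodes the precursor of the saposins, cofactors of sphingolipid breakdown. In E4 cells Psap stood at 4076, 3838, 4178, 4098 and 4017 rescaled TPM after myelin, against 1489, 2240.3, 2314, 2302 and 2237 rescaled TPM untreated. In E3 cells Psap stood at 3435, 2686, 3764 and 3137 rescaled TPM after myelin, against 1651, 1787, 2085 and 1918 rescaled TPM untreated. In KO cells Psap stood at 3385, 3461, 3421, 3105 and 3914 rescaled TPM after myelin, against 3402, 3003, 3114, 3170.2 and 2826 rescaled TPM untreated. Untreated, both human genotypes lay below every KO library. After myelin the E4 libraries overlapped the upper part of the KO range, and the E3 libraries reached below it. Psap rose by 0.95 ± 0.10 in E4 and 0.80 ± 0.11 in E3, against 0.15 ± 0.10 in KO, a difference of 0.72 ± 0.12 (limma, adjusted p = 0.00132).

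Lipa, the acid lipase that frees cholesterol from its esters, gave 0.52 ± 0.12 (limma, adjusted p = 0.0118), and the lysosomal calcium channel Mcoln1 0.64 ± 0.16 (adjusted p = 0.02). Npc1, which passes cholesterol out of the lysosome, gave 0.34 ± 0.08 (adjusted p = 0.0224). The cathepsins Ctsd (0.21 ± 0.11, adjusted p = 0.329) and Ctsb (0.33 ± 0.11, adjusted p = 0.0934) rose in both human genotypes, but their difference from KO did not pass. Lamp1, a membrane glycoprotein of the lysosome, gave 0.46 ± 0.29 (adjusted p = 0.454).

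The proton pump that acidifies the lysosome had 6 of 17 tested subunits with a higher response (Atp6v0d2, Atp6v1a, Atp6v1g1, Atp6v0e, Atp6v0c and Atp6v0b) and 0 with a lower one, and all 17 differences were positive, with a median of 0.23. Over all genes tested 1.88% were called higher and 1.47% lower. Atp6v0d2, a subunit found in macrophages and osteoclasts, had the largest. In E4 cells Atp6v0d2 stood at 17.2, 20.3, 19.2, 17.1 and 15.8 rescaled TPM after myelin, against 5.11, 5.905, 6.25, 7.13 and 8.07 rescaled TPM untreated. In E3 cells Atp6v0d2 stood at 11.1, 12.5, 15.6 and 11.5 rescaled TPM after myelin, against 5.85, 4.99, 7.56 and 6.38 rescaled TPM untreated. In KO cells Atp6v0d2 stood at 39.7, 42.9, 43.01, 42.1 and 53.3 rescaled TPM after myelin, against 40.98, 37.9, 38.8, 41.1 and 27.5 rescaled TPM untreated. Human APOE cells rose but stayed below every KO library in both conditions. The difference was 0.89 ± 0.15 (limma, adjusted p = 0.00147). Atp6v1a, the catalytic subunit, gave 0.58 ± 0.16 (adjusted p = 0.0433) and lost its call in 18 of the 28 fits without 1 library, and Atp6v0e lost its own in 9. Myelin raised 11 subunits in E4, 7 in E3 and 0 in KO, where 8.37%, 6.1% and 1.06% of all genes tested rose. With E4 alone against KO, 4 of the 17 were called higher by limma, and with E3 alone 0. The shares of all genes tested called higher were 0.69% and 0.901%. Of 21 MiT/TFE and nutrient sensing genes, 3 were called higher: the GTPase Rragc (0.66 ± 0.18, adjusted p = 0.0384), the folliculin partner Fnip2 (0.60 ± 0.17, adjusted p = 0.0465) and the autophagy receptor Sqstm1 (0.31 ± 0.09, adjusted p = 0.0462). Leaving out 1 library lost the call of Rragc in 12 of 28 fits, that of Fnip2 in 18 and that of Sqstm1 in 20. Of 24 endosome and retromer genes 1 was called, the tether Eea1 (0.43 ± 0.11, adjusted p = 0.035), lost in 10 of the 28 fits without 1 library.

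MiT/TFE factors such as TFEB bind a form of CACGTG in promoters of lysosomal genes, so the members' promoters were searched for it. CACGTG, which reads the same on both strands, was in 12 of 35 lysosomal promoters (34.3%) and 4 of 11 proton pump promoters (36.4%), against 999 of the 8238 (12.1%). The longer TCACGTGA, each match of which also counts as CACGTG, was in 5 of 35 (14.3%) and 3 of 11 (27.3%), against 193 of the 8238 (2.34%). Of the lysosomal and pump genes called higher, 12 had a promoter in the table and 6 of these held CACGTG: Mcoln1, Ctsa, Cln3, Atp6v0b, Atp6v0e and Atp6v1a. Among all genes called higher the share was 28 of 150 (18.7%). The windows of 120 bases below lie at chr8:3500428-3500547 (plus strand), chr2:164833683-164833802 (plus strand), chr7:126583286-126583405 (minus strand) and chr4:117887300-117887419 (minus strand), with CACGTG in capitals:
Mcoln1: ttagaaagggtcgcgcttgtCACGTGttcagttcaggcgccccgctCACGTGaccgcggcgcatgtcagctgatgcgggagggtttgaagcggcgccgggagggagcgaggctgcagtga
Ctsa: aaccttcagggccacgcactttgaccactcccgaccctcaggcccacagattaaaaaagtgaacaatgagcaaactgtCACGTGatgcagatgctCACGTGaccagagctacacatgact
Cln3: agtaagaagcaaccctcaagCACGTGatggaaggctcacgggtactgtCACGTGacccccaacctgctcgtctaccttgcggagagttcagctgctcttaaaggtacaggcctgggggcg
Atp6v0b: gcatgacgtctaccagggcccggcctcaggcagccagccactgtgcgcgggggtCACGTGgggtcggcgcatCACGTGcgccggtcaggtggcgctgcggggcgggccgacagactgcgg
Each window holds the motif 2 times, within 149 bases before the annotated start or just past it. The match describes the sequence and says nothing of which factor acted.

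Among 25 genes of disease-associated microglia, the state seen around amyloid plaques and in demyelination, 6 had a higher response in human APOE cells (Gpnmb, Lgals3, Fabp5, Cd68, Igf1 and Cd63) and 2 a lower one (Ccl6 and Cd52), with a median of 0.19. Over all genes tested 1.88% were called higher and 1.47% lower. Gpnmb, at chromosome 6 from 49036546 to 49070929, is a membrane glycoprotein of lipid-laden macrophages. In E4 cells Gpnmb stood at 2779, 2935, 2959, 2788 and 2858 rescaled TPM after myelin, against 935, 1307, 1279, 1354 and 1481 rescaled TPM untreated. In E3 cells Gpnmb stood at 2100.4, 2080.5, 2729 and 2229 rescaled TPM after myelin, against 1202, 1135, 1519 and 1479 rescaled TPM untreated. In KO cells Gpnmb stood at 2218, 2307, 2436, 2288 and 2362 rescaled TPM after myelin, against 2275, 2039.6, 2098, 2205 and 1933 rescaled TPM untreated. Untreated human APOE libraries were all below the KO libraries, and after myelin the E4 libraries were above them and the E3 libraries overlapped them. The difference was 0.84 ± 0.12 (limma, adjusted p = 0.000114). Lgals3, the lectin galectin-3, which binds damaged lysosomes, gave 0.67 ± 0.08 (adjusted p = 1.03e-05), with 5296 ± 519 rescaled TPM in E4 after myelin and 3336 ± 276 untreated (SD, n = 5 each). The receptor Trem2 (0.14 ± 0.11, adjusted p = 0.577), the lipase Lpl (0.25 ± 0.14, adjusted p = 0.378) and osteopontin Spp1 (0.05 ± 0.10, adjusted p = 0.872) did not pass.

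Of 20 homeostatic microglia genes 1 was called, the fractalkine receptor Cx3cr1, with a lower response (-0.65 ± 0.15, limma, adjusted p = 0.0167). Among all genes tested 1.88% were called higher and 1.47% lower, the background for each list in this paragraph. In E4 cells Cx3cr1 stood at 288, 262, 292, 381 and 319 rescaled TPM after myelin, against 319.9, 433, 394, 461 and 437 rescaled TPM untreated. In E3 cells Cx3cr1 stood at 316, 206, 330.2 and 280.1 rescaled TPM after myelin, against 283, 294, 383 and 339 rescaled TPM untreated. In KO cells Cx3cr1 stood at 477, 525, 450.5, 433 and 574 rescaled TPM after myelin, against 346, 395, 406, 433 and 357 rescaled TPM untreated. The groups of every genotype overlapped between conditions: E4 fell (-0.41 ± 0.12, adjusted p = 0.0221), while E3 (-0.21 ± 0.14, adjusted p = 0.327) and KO (0.34 ± 0.12, adjusted p = 0.145) did not pass. The list's median difference was -0.20. Tmem119 gave -0.53 ± 0.16 (adjusted p = 0.0628) and P2ry12 -0.81 ± 0.29 (adjusted p = 0.124), neither past the threshold. Of 12 complement genes 1 was called lower, C3 (-0.74 ± 0.20, adjusted p = 0.0359, lost in 10 of the 28 fits without 1 library), and of 18 phagocytic receptor genes 1 was called higher, Gas6, a bridge between dying cells and TAM receptors (0.60 ± 0.15, adjusted p = 0.0216, lost without KO untreated replicate 1 at 0.0510). Of 4 tested MHC class II genes 0 were called by limma (2 at an unadjusted p under 0.05), with a median of -0.33.

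Chemokines, the proteins that draw in other immune cells, had the lowest median difference of all lists. Of 15 tested, 8 had a lower response in human APOE cells (Cxcl10, Ccl2, Ccl7, Ccl12, Ccl4, Ccl6, Ccl3 and Ccl9) and 0 a higher one, against 1.47% lower among all genes tested, with a median difference of -0.55. In E4 11 of them fell after myelin, in E3 9 and in KO 1, where 7.34%, 4.53% and 1.7% of all genes tested fell. The 13 tested fibroblast and pericyte markers had median responses of -0.42 in E4, -0.71 in E3 and -0.20 in KO, and their part in the chemokine values was not tested. Ccl2, at chromosome 11 from 82035571 to 82037453, attracts monocytes. In E4 cells Ccl2 stood at 74.1, 89.3, 69.4, 76.5 and 74.02 rescaled TPM after myelin, against 162, 164, 187, 188 and 179 rescaled TPM untreated. In E3 cells Ccl2 stood at 81.3, 109.8, 75.9 and 89.6 rescaled TPM after myelin, against 163, 179, 171 and 215 rescaled TPM untreated. In KO cells Ccl2 stood at 82.9, 66.2, 72.8, 71.1 and 62.9 rescaled TPM after myelin, against 54.3, 58.98, 75.9, 75.9 and 77.6 rescaled TPM untreated. Untreated E4 and E3 cells held more Ccl2 than any KO library, and after myelin they overlapped the KO range. Ccl2 fell by 1.19 ± 0.11 on the log2 scale in E4 and by 1.03 ± 0.12 in E3, with a change of 0.06 ± 0.11 in KO, which did not pass, and a difference of -1.17 ± 0.13 (limma, adjusted p = 7.08e-06). Its neighbour Ccl7, also a monocyte attractant, gave -0.98 ± 0.17 (adjusted p = 0.00177) and Ccl12, a related ligand, -0.95 ± 0.25 (adjusted p = 0.0326), which was lost in 5 of the 28 fits without 1 library.

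Cxcl10, an interferon-induced attractant of T cells, stood at 23.1, 14.8, 12.5, 22.97 and 15.5 rescaled TPM in E4 after myelin, against 42.9, 59.3, 48.4, 63.8 and 47.99 untreated. In E3 cells Cxcl10 stood at 13.7, 22.4, 14.6 and 13.4 rescaled TPM after myelin, against 28.7, 30.1, 31.8 and 49.6 rescaled TPM untreated. In KO cells Cxcl10 stood at 2.42, 3.02, 2.28, 3.997 and 3.22 rescaled TPM after myelin, against 2.56, 2.72, 1.47, 1.77 and 4.79 rescaled TPM untreated. Human APOE cells fell but stayed above every KO library in both conditions, and all KO levels were below the minimum of 5 used for testing. Cxcl10 was thus tested only because of its human APOE levels, and a KO response so close to 0 is understated on this scale. The difference was -1.48 ± 0.25 (limma, adjusted p = 0.00144), and -1.21 with a pseudocount of 5. Of 24 interferon-stimulated genes Cxcl10 was the 1 called, against 1.88% higher and 1.47% lower among all genes tested. Of the 24 differences 23 were negative, with a median of -0.27. Ch25h, which makes 25-hydroxycholesterol, an oxysterol of activated macrophages, fell in E4 (-0.47 ± 0.11) and E3 (-0.46 ± 0.13) and rose in KO (0.48 ± 0.11), a difference of -0.94 ± 0.14 (adjusted p = 0.000311). Of 23 cytokines and NF-kB targets 0 were called by limma (4 at an unadjusted p under 0.05), with a median of -0.16. Il1b fell in E4 (-1.32 ± 0.19) and E3 (-1.10 ± 0.21) with a difference of -0.69 ± 0.23 (adjusted p = 0.0901), and Tnf gave -0.27 ± 0.15 (adjusted p = 0.386).

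**Figure D4:**
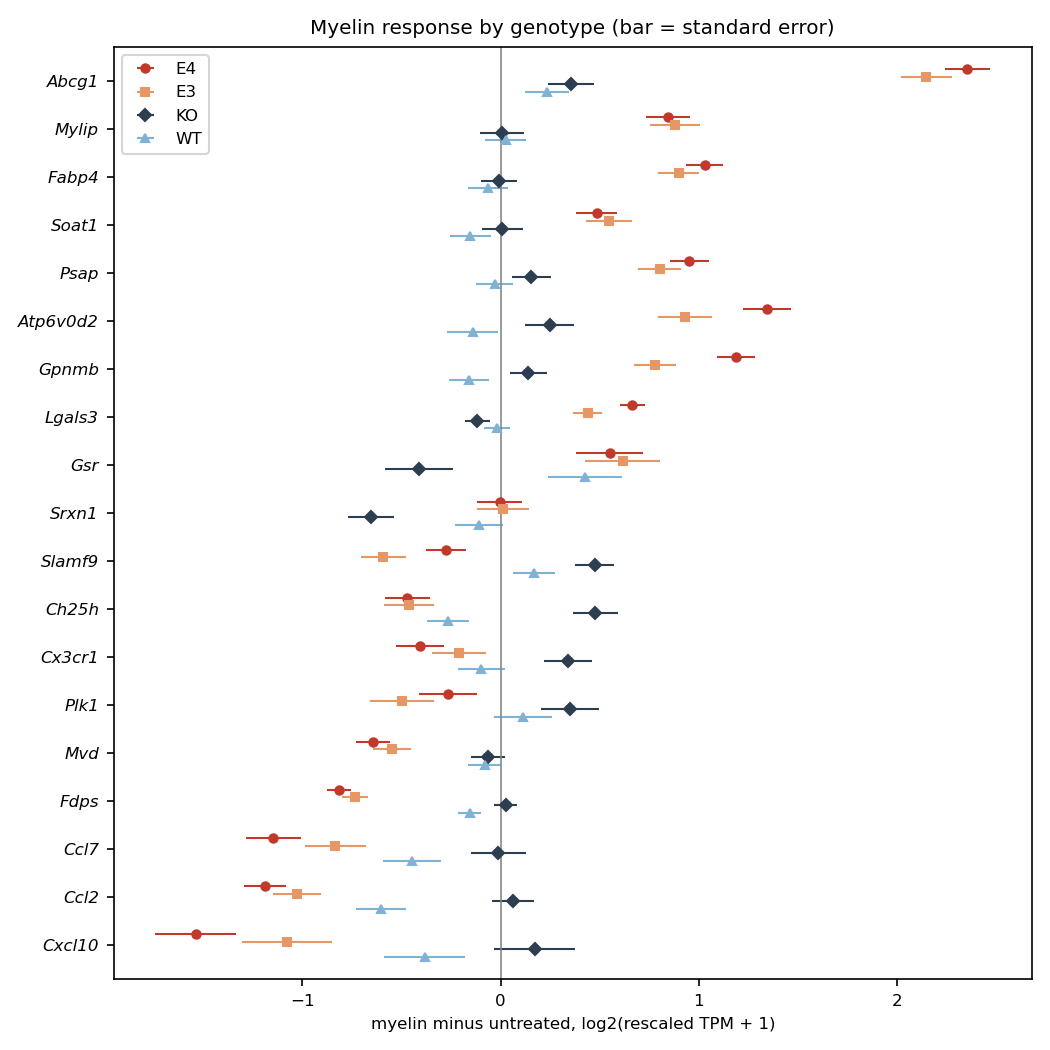
Myelin response (myelin minus untreated, log2 of rescaled TPM plus 1, ± SE) of 19 named genes in E4, E3, KO and WT cells. The E4 and E3 points lie to the right of the KO point for Abcg1 through Srxn1 and to the left of it for Slamf9 through Cxcl10.

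NRF2 is a factor that drives antioxidant genes. Of 24 tested, 9 had a higher response in human APOE cells (Gclm, Gsr, Srxn1, Osgin1, Prdx1, Pgd, Taldo1, Fth1 and Ftl1) and 0 a lower one, with a median of 0.31. Over all genes tested 1.88% were called higher and 1.47% lower. Myelin lowered 9 of the 24 in KO and raised 0. It raised 1 and lowered 5 in E4, and raised 1 and lowered 1 in E3. The shares of all genes tested that fell were 1.7% in KO, 7.34% in E4 and 4.53% in E3. The shares that rose were 1.06%, 8.37% and 6.1%. Srxn1, which repairs peroxiredoxins, fell in KO (-0.65 ± 0.12, adjusted p = 0.00118) and gave -0.01 ± 0.12 in E4 and 0.01 ± 0.13 in E3, a difference of 0.66 ± 0.14 (limma, adjusted p = 0.0112). Osgin1, an oxidative stress response gene, fell in KO by 0.69 ± 0.11 and gave a difference of 0.55 ± 0.14 (adjusted p = 0.0308), lost in 5 of the 28 fits without 1 library. Gsr, glutathione reductase, rose in E4 and E3. In E4 cells Gsr stood at 26.5, 38.4, 30.4, 35.99 and 27.3 rescaled TPM after myelin, against 17.7, 17.5, 21.2, 23.2 and 27.4 rescaled TPM untreated. In E3 cells Gsr stood at 19.6, 35.5, 40.9 and 23.8 rescaled TPM after myelin, against 20.02, 18.1, 17.1 and 18.5 rescaled TPM untreated. In KO cells Gsr stood at 55.8, 61.4, 80.4, 63.8 and 45.7 rescaled TPM after myelin, against 113, 74.8, 81.8, 66.6 and 74.4 rescaled TPM untreated. KO libraries lay above all human APOE libraries in both conditions, and the groups of each genotype overlapped. Its difference was 0.99 ± 0.21 (adjusted p = 0.0101). Gclm, a subunit of the enzyme that starts glutathione synthesis, was spread from 294 to 719.7 rescaled TPM in untreated KO cells, and its difference of 1.35 ± 0.37 (adjusted p = 0.0395) was lost in 12 of the 28 fits without 1 library. With trimmed-mean library factors 6 of the 24 were called higher.

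Cell division genes had a median gap of 0.72 between human APOE and KO cells untreated and of 0.23 after myelin (log2). Of 21 tested, 9 had a lower response in human APOE cells (Plk1, Birc5, Mcm5, Top2a, Tyms, Cdk1, Ube2c, Aurka and Tk1) and 0 a higher one, against 1.47% lower among all genes tested. Of the 21 differences 20 were negative, with a median of -0.47. With E4 alone against KO, 0 of the 21 were called lower by limma, and with E3 alone 5. The shares of all genes tested called lower were 0.575% and 0.968%. The count of 9 for both human genotypes became 6 without E3 myelin replicate 3 and E4 untreated replicate 1. Median responses were -0.15 in E4, -0.30 in E3 and 0.32 in KO. Myelin lowered 4 members in E3, raised 3 in E4 and raised 4 in KO. Of all genes tested 4.53% fell in E3, 8.37% rose in E4 and 1.06% rose in KO. Plk1, a kinase of mitosis, ranged over 10.4 to 13.4 rescaled TPM in E4 after myelin, against 11.5 to 16.2 untreated, and over 15.5 to 23.5 in E3 after myelin, against 20.9 to 29.97 untreated. In KO it ranged over 6.44 to 13.3 after myelin, against 6.59 to 7.901 untreated. The groups of each genotype overlapped. Its difference was -0.73 ± 0.18 (limma, adjusted p = 0.0244), lost without KO untreated replicate 1 (0.0510), KO myelin replicate 2 (0.0592) or KO myelin replicate 5 (0.0545). Mcm5, part of the replicative helicase, rose in KO (0.58 ± 0.12, adjusted p = 0.00433) and gave a difference of -0.69 ± 0.15 (adjusted p = 0.00976). Survivin Birc5 (-0.70 ± 0.18, adjusted p = 0.0306) was lost without KO untreated replicate 1 (0.0850), KO untreated replicate 2 (0.0533), KO myelin replicate 2 (0.0730) or KO myelin replicate 5 (0.0589). Topoisomerase Top2a gave -0.66 ± 0.16 (adjusted p = 0.0256) and was lost in 3 of the 28 fits.

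Other lists held few or no calls, where 1.88% of all genes tested were called higher and 1.47% lower. Of 30 ribosomal protein genes 1 was called, Rps18 (-0.38 ± 0.09, adjusted p = 0.0216), although all 30 differences were negative with a median of -0.23. With trimmed-mean library factors, or with the trend on 5′ GC content removed, that call was lost, as it was in 1 of the 28 fits without 1 library. Of 29 nuclear genes of the respiratory chain 0 were called by limma (7 at an unadjusted p under 0.05), with a median of -0.15. Of 23 ATF4 targets, genes of the amino acid stress response, 2 had a higher response and 1 a lower one. The higher ones were the pseudokinase Trib3 (0.91 ± 0.17, adjusted p = 0.00317) and the bZIP factor Cebpg (0.87 ± 0.16, adjusted p = 0.0023), and the lower one was the serine synthesis enzyme Phgdh (-0.54 ± 0.14, adjusted p = 0.0352), lost in 8 of the 28 fits without 1 library. Of 18 chaperones of the unfolded protein response 0 were called by limma (7 at an unadjusted p under 0.05), with a median of -0.10. Of 25 glycolysis and hypoxia genes 1 was called lower, Ldha (-0.32 ± 0.07, adjusted p = 0.0104). Of 17 immediate early genes 2 were called higher, the phosphatase Dusp1 (1.11 ± 0.23, adjusted p = 0.00607) and the factor Jun (0.77 ± 0.15, adjusted p = 0.00395).

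**Figure D5:**
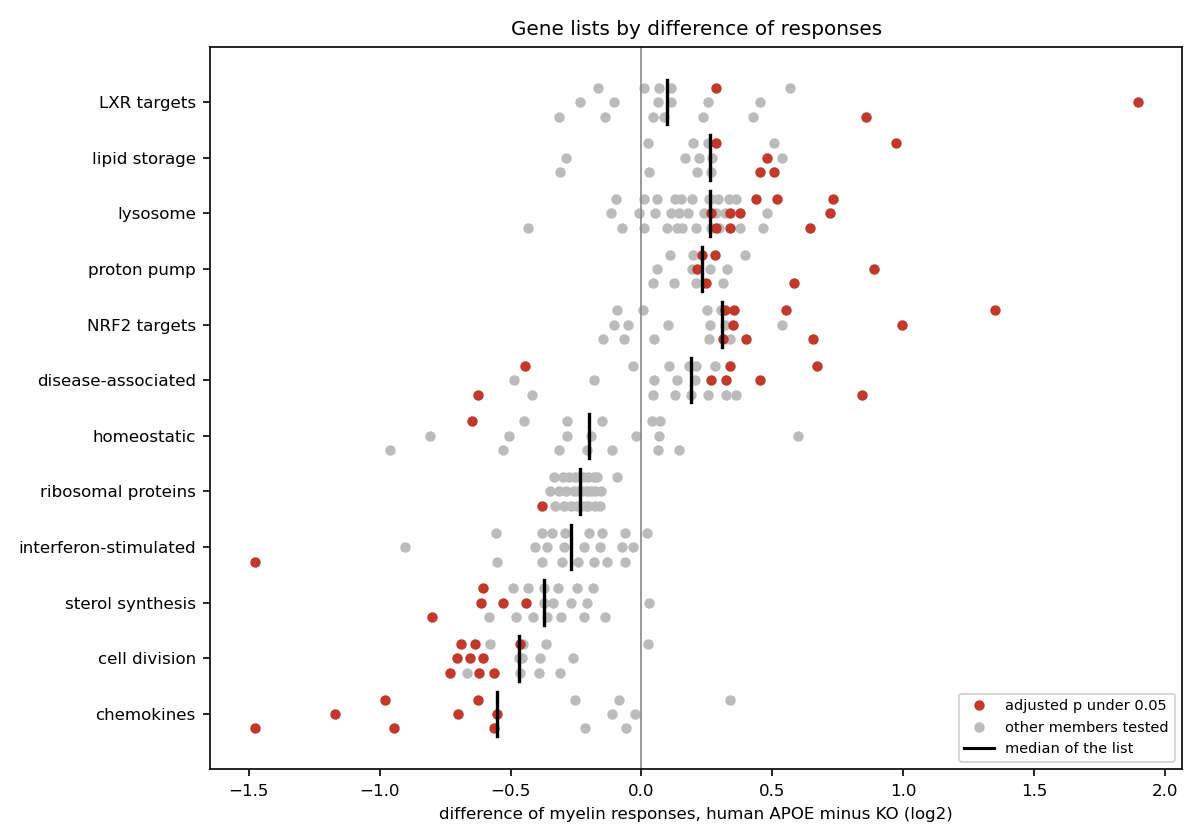
Each point is a tested member of a gene list by its difference of responses, human APOE minus KO (log2); red points passed an adjusted p of 0.05 and the black bar is the list's median. LXR targets, lipid storage, lysosome, proton pump and NRF2 members lie mostly right of 0, and sterol synthesis (median -0.37), cell division (-0.47) and chemokines (-0.55) left of it.

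Igfbp2, a binding protein of insulin-like growth factors, stood at 395 to 1026 rescaled TPM in E4 after myelin, against 202 to 399.6 untreated, and at 18.1 to 43.8 in KO after myelin, against 31.7 to 62.9 untreated. Its difference was 1.61 ± 0.33 (limma, adjusted p = 0.00594). Olig1, a factor of the oligodendrocyte lineage, fell in KO (-0.80 ± 0.17) to 3.73, 2.55, 3.43, 2.66 and 3.63 rescaled TPM after myelin, against 6.34, 7.595, 7.01, 5.39 and 5.298 untreated, and gave 0.36 ± 0.17 in E4 and 0.30 ± 0.19 in E3. Its difference was 1.13 ± 0.21 (adjusted p = 0.00276), and that of myelin basic protein Mbp was 0.47 ± 0.12 (adjusted p = 0.0291). The neuropeptide precursor Vgf (1.15 ± 0.21, adjusted p = 0.00292) and the BMP antagonist Nog (1.28 ± 0.20, adjusted p = 0.000544) fell in KO and were higher in human APOE cells at rest. With a pseudocount of 5 the difference of Vgf was 0.55 and lost its call (limma, adjusted p = 0.0504). Those of Nog (0.75) and Olig1 (0.76) kept theirs. All KO levels of Olig1 after myelin were below 5. Of the 15 tested astrocyte markers 0 were called higher and 1 lower, Glul (-0.35 ± 0.08, limma, adjusted p = 0.0164), with a median difference of 0.38 and 12 of 15 positive. Slc1a2, S100b, Sox9, Ntsr2, Hes5 and Fgfr3 had KO means below 5 rescaled TPM in both conditions. They were tested because of their human APOE levels, and their KO responses lie near the floor. With a pseudocount of 5 the median of the list was 0.23. The median gap of these markers, human APOE minus KO, was 2.66 after myelin and 2.48 untreated (log2). Gjb6 was listed at 0 in 9 libraries, Hes5 in 2 and Ntsr2 in 1, and the other astrocyte markers were above 0 in all 28. The part of other cell types in these differences was not tested. Of 6 tested oligodendrocyte markers 2 were called higher, Olig1 and Mbp, and of 12 microglia and macrophage markers 1 was called higher, Cd68, and 2 lower, Cx3cr1 and Aif1. Among all genes tested 1.88% were called higher and 1.47% lower, the background for every marker count in this paragraph. The call of Aif1 was lost in 15 of the 28 fits without 1 library and that of Mbp in 3. Limma called 0 of 3 neuron markers (1 at an unadjusted p under 0.05), 0 of 13 fibroblast and pericyte markers (2), 0 of 3 endothelial markers (2) and 0 of 4 border macrophage and monocyte markers (1).

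Rnf128, a ubiquitin ligase of T cell anergy, ranged over 153 to 189 rescaled TPM in E4 after myelin, against 55.7 to 137 untreated, and over 234 to 259 in KO after myelin, against 254 to 337 untreated. Its difference was 1.56 ± 0.24 (limma, adjusted p = 0.000479), and WT cells rose too (1.01 ± 0.26, adjusted p = 0.019). Setd6, a lysine methyltransferase, rose in E4 and E3, with a difference of 1.09 ± 0.27 (adjusted p = 0.0232, lost without KO untreated replicate 1 at 0.0611). Over the first 300 transcript bases the median GC content was 66.3% in the 196 genes called higher and 58.3% in the 153 called lower, against 61.0% in all genes tested. With each library's trend on that content removed, 437 genes were called, 280 higher and 157 lower, and 64 of the 71 named calls remained. Zfp987 had the largest difference of all named genes (3.48 ± 0.88, adjusted p = 0.0267), with levels scattered between 0 and 11.9 rescaled TPM, and was lost in 6 of the 28 fits without 1 library. It belongs to a cluster of near-identical zinc finger genes, among which reads may be split, so its value is uncertain. At the lower end, the receptor Slamf9 of the SLAM family fell in E3 (-0.59 ± 0.11) and rose in KO (0.47 ± 0.10), a difference of -0.91 ± 0.12 (adjusted p = 0.000113).

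The same E4 and E3 libraries were also set against WT cells, which share the human APOE libraries with the comparison above, so the values stand side by side only. In a fit of 38 libraries the response of human APOE cells differed from that of WT cells at 1060 of 10670 genes (9.93%), 578 higher (5.42%) and 482 lower (4.52%). Leaving out single libraries gave from 400 genes (WT myelin replicate 3 out) to 1674 (WT myelin replicate 5 out), and 8 of them moved it by over 1.5 times. WT cells changed at 511 genes (4.79%), 457 up (4.28%) and 54 down (0.506%). Human APOE minus WT was 2.02 ± 0.14 for Abcg1 (adjusted p = 2.68e-12), 1.03 ± 0.13 for Fabp4 (adjusted p = 3.17e-06) and 1.14 ± 0.13 for Gpnmb (adjusted p = 5.35e-07). For Psap it was 0.91 ± 0.12 (adjusted p = 6.9e-06) and for Fdps -0.62 ± 0.07 (adjusted p = 1.22e-06). Abcg1 stood at 9.03, 7.102, 7.96, 6.09 and 6.83 rescaled TPM in WT after myelin, against 6.21, 6.43, 5.87, 5.58 and 6.43 untreated, with overlap. Its WT response of 0.23 ± 0.11 (adjusted p = 0.256) did not pass. Chemokines fell in WT for Ccl2 (-0.60 ± 0.12, adjusted p = 0.00457), and human APOE minus WT was -0.50 ± 0.16 (adjusted p = 0.0379). Of the NRF2 genes, the difference from WT did not pass for Gsr (0.16 ± 0.23, adjusted p = 0.683) or Srxn1 (0.11 ± 0.15, adjusted p = 0.66). E4 and E3 did not differ from each other at the threshold in any of these genes, and the closest of the named genes was Asns, asparagine synthetase (0.68 ± 0.13, adjusted p = 0.104).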

How the data were processed

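Polyadenylated RNA of cultured microglia was sequenced from low-input SMARTer libraries, per the labels' protocols. The authors deposited TPM, a transcript abundance that sums to 1000000 in each library, for 53697 genes. TPM keep no record of read depth, so the precision that depth would give is unknown and intervals for counting error are left out. The submitters' processing notes list Salmon 0.13.1, limma 3.40.6 and mm10, with no role given. TPM were rescaled to 1000000 over protein-coding genes without mitochondrially encoded ones. Such values cannot show a change in the RNA content of a cell.

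Testing covered protein-coding genes and lincRNAs that reached 5 rescaled TPM in 4 or more of the 28 libraries (10436 genes). log2(rescaled TPM + 1), with a pseudocount of 1, was fitted with limma 3.58.1 (R 4.3.3), with a mean per group, no weights and an empirical Bayes trend. P-values are two-sided and Benjamini-Hochberg adjusted over all genes tested, called under 0.05. The log2 scale understates changes of low genes. On simulated data the comparison of human APOE with KO recovered 87% of 100 genes changed 2-fold and 47% of 100 changed 1.5-fold, with 6 false calls among 10358 genes. The simulated noise was independent for each gene and library, without effects shared by the genes of a library. These rates therefore need not hold in the real libraries. The members and the 32 gene lists were chosen with earlier results of these data known. Named genes were the 12 largest called differences in each direction with the same sign in E4 and E3, up to 4 called members of each list, a set of genes taken whatever their values, and every member of a count of 5 or fewer. A few others were chosen after their values were seen. Some named genes are not reported here. Gene positions are those of GENCODE on mm10, and promoters those of RefSeq (GRCm38.p6). Alternatives were trimmed-mean library factors, pseudocounts of 0.5 and 5, other filters, library weights, all 47 libraries, a replicate block and each library left out. Removal of the 5′ GC trend and leaving out 2 libraries together were chosen after seeing the data.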

Additional observations from a re-analysis of the deposited data

Results flagged for a closer look

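A sample stood far from the others of its group in 12 of the 174 groups of values examined, where chance alone gives about 1 in 20. In E4 cells these were Mvd at 22.3 rescaled TPM in myelin replicate 5, Dusp1 at 1416.4 in myelin replicate 4, and Psap at 1488.5 and Zfp987 at 0.154 in untreated replicate 1. In E3 cells they were Cxcl10 at 22.4 in myelin replicate 2, Apoe at 92.2 and Zfp987 at 5.15 in untreated replicate 1, and Cxcl10 at 49.6 and Slamf9 at 39.2 in untreated replicate 4. In KO cells they were Atp6v0d2 at 53.3 in myelin replicate 5 and at 27.5 in untreated replicate 5, and Zfp987 at 5.31 in myelin replicate 3.

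The response to myelin differed between human APOE and KO cells at 349 genes in a test of the difference itself (limma). Among those named, human APOE minus KO on the log2 scale was 1.90 for Abcg1, 0.86 for Mylip, 0.28 for Plin2, 0.97 for Fabp4 and 0.51 for Soat1. It was -0.80 for Fdps and -0.53 for Mvd. For lysosomal and disease-associated genes it was 0.72 for Psap, 0.89 for Atp6v0d2, 0.84 for Gpnmb and 0.67 for Lgals3. For immune genes it was -1.17 for Ccl2, -0.98 for Ccl7, -1.48 for Cxcl10, -0.94 for Ch25h, -0.91 for Slamf9 and -0.65 for Cx3cr1. It was 1.35 for Gclm and 0.99 for Gsr, and -0.73 for Plk1 and -0.70 for Birc5. It was 1.61 for Igfbp2, 1.13 for Olig1, 1.56 for Rnf128, 1.09 for Setd6, 1.11 for Dusp1 and 3.48 for Zfp987.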

How the results depend on the processing

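Fitted otherwise, the 349 genes of the comparison of human APOE with KO became 149 without a filter on low values, 878 with library weights, 2 with all 47 libraries in the fit and 693 with all 47 libraries and weights. E4 minus KO, at 132, became 66 without a filter, 667 with weights, 2 with 47 libraries and 602 with both. E3 minus KO, at 195, became 103 without a filter, 538 with weights, 0 with 47 libraries (567 at an unadjusted p under 0.05 in limma) and 323 with both. The E4 response, at 1639, became 2715 with weights, 297 with 47 libraries and 2682 with both. The E3 response, at 1110, became 738 without a filter, 1819 with weights, 11 with 47 libraries and 584 without E3 myelin replicate 3 and E4 untreated replicate 1. The KO response, at 288, became 579 with weights, 11 with 47 libraries and 514 with both. Human APOE minus WT, at 1060, became 464 without a filter, 16 with 47 libraries and 470 without those 2 libraries. The cause of these changes was not tested. Leaving out 1 library gave 165 to 509 genes for human APOE minus KO, 70 to 248 for E4 minus KO, 94 to 281 for E3 minus KO, 1132 to 1926 in E4, 391 to 1410 in E3, 183 to 359 in KO and 400 to 1674 for human APOE minus WT. The lowest E3 count was without E3 myelin replicate 3 and the lowest KO count without KO myelin replicate 5. Apart from the replicate block, given below, and the settings named here, the alternatives stayed within 1.5 times. With trimmed-mean library factors E4 minus KO had 131 higher and 65 lower calls, against 72 and 60, and human APOE minus WT 1085 and 447, against 578 and 482. Of the 71 named calls, 37 remained without a filter, 2 with all 47 libraries (Abcg1 and Fdps) and 53 with the replicate block. Spp1, which was not called, turned to -0.018 without the 2 libraries. Same-numbered libraries of a genotype deviated together in 2 of 14 pairs (correlation over 0.1, range -0.212 to 0.471). The main fit did not pair them, and these correlations cannot tell whether such libraries shared an animal or culture. With the replicate block the counts were 216 for human APOE minus KO, 85 for E4 minus KO and 74 for E3 minus KO.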
